A study of Mus musculus with 4 samples.

Results

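The TRIM family is a large family of proteins, most of them ubiquitin ligases, and 42 of its genes were followed here through treatment with the immune agonist R848. The members were all genes whose symbol is Trim plus a number, with or without a letter from a to d, and whose mean level over the 4 samples was at least 0.5 FPKM (the authors' length-scaled unit of expression). Of 67 such symbols 42 reached that level, out of 28074 symbols in the table. The lowest member was Trim47, with a mean of 0.688 FPKM, and the highest symbol left out was Trim36, at 0.470. All 42 had a mean of at least 0.5 FPKM in control and also with R848, so no member entered through 1 group alone. One symbol, Trim30b, had a pair of rows that both reached the level, and the row with the higher mean was used.

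The cells were leukaemic splenocytes of 2 mice, numbered 4050 and 4182, with Dnmt3a fl/fl (floxed alleles), Flt3 ITD/ITD (an internal tandem duplication on both alleles) and the transgene Mx1Cre. Mx1Cre is driven by a promoter that interferon switches on, and it is carried by control and R848 samples alike, as are both leukaemia mutations. The labels give Dnmt3a both as fl/fl and as +/-, which was not settled here, and they give no age. After thawing, cells were kept for 24 hours in medium holding 20% serum and the cytokines SCF (60 ng/ml), IL6 (20 ng/ml) and IL3 (20 ng/ml). Cells of each mouse were then cultured for 3 days with vehicle (control, n = 2) or with 10 µg/ml R848 (n = 2). R848, or resiquimod, is an imidazoquinoline that activates the endosomal RNA receptors TLR7 and TLR8, and the study asked which genes and pathways change with it in these leukaemia cells.

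A typical TRIM protein carries a RING finger, which recruits the ubiquitin-conjugating enzyme, followed by B-box zinc fingers and a coiled coil. The part behind these differs between members and sets what the protein binds. The largest class ends in a PRYSPRY domain, and it includes proteins that bind viral capsids or the antibody on a virus. Many of these genes are known to be induced by interferon in macrophages and other myeloid cells. Other classes act in chromatin repression, on microtubules or in muscle.

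Only 2 of the 42 TRIM genes, Trim30a and Trim21, passed the test without the mouse in the fit, and both rose with R848. Both belong to a set of 12 PRYSPRY genes of the TRIM5, TRIM30 and TRIM34 type on chromosome 7, called the chromosome 7 group below. It is a list by type of gene and not by place, and Trim3 and Trim28, also on chromosome 7, are outside it. With the mouse as a block in the fit, which compares the cultures within each animal, Trim30d of the same group passed as well. No member fell. The tests were made with limma on log2(FPKM + 1) over all 14108 genes that reached a mean of 0.5 FPKM, at an adjusted p under 0.05. Of all genes tested 1.13% rose and 0.269% fell, and a count of 2 members is too small to set the family apart from that background. With the block 2.82% of all genes rose, beside 3 members, and 1.3% fell, beside 0 members (4.13% in either direction). Without adjustment, 5 members were higher and 0 lower at a limma p under 0.05, all 5 in the chromosome 7 group, beside 5.08% of all genes higher and 6.15% lower. A log2 difference of at least 0.5 in both mice was reached upward by 5 members (3.91% of all genes) and downward by 0 (3.03%). At 1 the count was 2 upward (Trim30a and Trim30d, with 1.67% of all genes) and 0 downward (0.39%).

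The chromosome 7 group is shown by sequence first, because 7 of its 12 genes hold a short motif near the start site. The interferon-stimulated response element, the DNA motif bound by interferon regulatory factors, was searched on both strands as its core (GAAA, any 2 bases, GAAA) in RefSeq promoter windows (GRCm38.p6) from 250 bases before the start site to 50 after it. All 12 genes of the group had a window, and 7 of them held the core. It was held by 1 of the 19 other members with a window, and by 3.993% of all 27025 genes with a window. Of the 42 members 31 had a window. In the sequences below, on the strand of the gene, the capitals mark the core, which reads TTTC, any 2 bases, TTTC where it lies on the opposite strand. Positions count from 1 at the first base of the transcript, with negative positions before it. The first sequences are the 80 bases before the start, shown because the copies resemble each other there.
Trim30a, chr7:104465194-104465273, minus strand: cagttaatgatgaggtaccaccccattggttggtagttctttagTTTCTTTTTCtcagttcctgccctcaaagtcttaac
Trim30d, chr7:104507850-104507929, minus strand: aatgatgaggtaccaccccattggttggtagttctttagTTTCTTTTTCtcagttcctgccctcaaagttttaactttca
Trim5, chr7:104288107-104288186, minus strand: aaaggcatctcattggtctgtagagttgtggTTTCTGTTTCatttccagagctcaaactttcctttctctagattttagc
Trim12c, chr7:104353350-104353429, minus strand: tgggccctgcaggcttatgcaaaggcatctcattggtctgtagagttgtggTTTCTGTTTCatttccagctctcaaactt

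The Trim30a and Trim30d stretches were identical at 74 of 75 bases when shifted by 5 bases, and the cores lay at -36 to -27 and at -41 to -32. Trim30a had a further window, at another start site, with the core at 3 to 12. Trim5 and Trim12c were identical at 58 of 60 bases when shifted by 20, with the cores at -49 to -40 and at -29 to -20. In Trim12a, Trim21 and Trim34a the core lay just after the RefSeq start, within the first 30 bases of the transcript shown here. For Trim12a this depends on the annotation. GENCODE M21 starts that gene at 104315466, which puts the core before the start. The 30 bases of Trim12a also occur whole in the Trim5 stretch above.
Trim12a, chr7:104315466-104315495, minus strand: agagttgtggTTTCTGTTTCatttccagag
Trim21, chr7:102565453-102565482, minus strand: ctgcctctgagagGAAACTGAAAGTGAAAt
Trim34a, chr7:104244457-104244486, plus strand: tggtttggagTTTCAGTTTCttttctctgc

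Trim21 held a pair of overlapping cores, at 14 to 23 and at 20 to 29. Trim6, Trim30b, Trim30c, Trim34b and Trim68 held none in these windows. The member outside the group with the core was Trim26, where a pair of overlapping matches lay at -160 to -151 and at -154 to -145. The core of the gamma-activated site, TTCNNNGAA, which is its own reverse complement, was in the windows of 1 of the 12 genes of the group (Trim30c), 2 of the 19 others (Trim45 and Trim46) and 9.554% of all genes. These matches describe letters in a window and do not show that a factor bound there.

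Trim30a encodes a ligase known as an interferon-inducible brake on Toll-like receptor signalling, acting on the kinase adaptors TAB2 and TAB3. Its gene lies on chromosome 7 (GRCm38, 104409025 to 104465193, GENCODE M21). It was at 22.4 FPKM in the control of mouse 4050 and 20.4 in that of mouse 4182, and at 55.0 and 59.7 with R848. Both R848 values lay above both controls, and the mice were nearly level in each condition. Control averaged 21.4 ± 1.41 FPKM and R848 57.3 ± 3.36 (mean ± SD, n = 2 each). Trim30a thus rose by 1.38 on the log2 scale, with an SE of 0.16 and a limma adjusted p of 0.0138. With the mouse as a block the limma adjusted p was 0.000868. The differences within the mice were 1.26 and 1.51. The call ended without either R848 sample (limma adjusted p = 0.117 without mouse 4050 and 0.187 without mouse 4182) and with no filter on low values (0.148).

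Trim21 encodes the cytosolic antibody receptor that directs antibody-coated virus to degradation. Its gene lies on chromosome 7 at 102557921 to 102565486, beside Trim68 and away from the other 10 genes of the group. Its level was 8.10 FPKM in the control of mouse 4050 and 7.45 in that of mouse 4182, against 16.9 and 18.7 with R848. The groups did not overlap, and again the mice differed little. Control averaged 7.78 ± 0.461 FPKM and R848 17.8 ± 1.25 (mean ± SD, n = 2 each). Trim21 rose by 1.10 on the log2 scale, with an SE of 0.18 and a limma adjusted p of 0.0457. This call was near the threshold. It ended when any 1 of the 4 samples was left out (limma adjusted p from 0.0996 to 0.398), after quantile normalization (0.0917), under median log ratio scaling (0.0766), with a constant variance prior (0.0544) and with no filter on low values (0.238). With the mouse as a block it stood at 0.0112 (0.0183 with the block and the median log ratio scaling).

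Trim30d, a close relative of Trim30a, had the largest mean difference among the members over all samples. It was at 3.43 FPKM in the control of mouse 4050 and at 0.419 in that of mouse 4182, and at 12.4 and 3.53 with R848. The lower R848 value was only just above the higher control, because mouse 4182 was low in both conditions. Within the mice the log2 differences were 1.60 and 1.68. The mean difference of 1.64 did not pass without the block (SE 0.65, limma adjusted p = 0.401) and passed with it (SE 0.23, limma adjusted p = 0.00229). Without 1 sample it ranged from 0.81 (without the control of mouse 4182) to 2.46 (without the control of mouse 4050), and it was 0.85 and 2.42 without the R848 sample of mouse 4050 and of mouse 4182. On the log2(FPKM + 1) scale this difference understates the change of so low a gene.

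The remaining members of the chromosome 7 group did not pass, with or without the block. Trim12c, a mouse homologue of the capsid-binding factor TRIM5, was at 19.2 and 33.6 FPKM in the controls of mice 4050 and 4182 and at 33.2 and 49.2 with R848. Within each mouse it was higher with R848, by 0.76 and 0.54 on the log2 scale, but the groups overlapped (limma adjusted p = 0.498, and 0.0647 with the block). Trim34a, another relative of TRIM5, was at 8.73 and 5.18 FPKM in the controls and at 13.6 and 9.56 with R848, in the same order of mice. These groups lay apart, with differences of 0.59 and 0.77 (limma adjusted p = 0.440, and 0.123 with the block).

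Trim30b was at 3.56 and 2.76 FPKM in the controls and at 10.2 and 3.83 with R848, so that the difference was 1.29 in mouse 4050 and 0.36 in mouse 4182. Trim30c was at 1.06 and 0.524 FPKM in the controls and at 1.53 and 1.73 with R848. The R848 values of both genes lay above the controls, by little in the lowest case. Trim6, which makes free ubiquitin chains in interferon signalling, was at 4.14 and 2.62 FPKM in the controls and at 6.52 and 2.93 with R848. Here the groups overlapped, and the mice differed more than the conditions. Trim68, a ligase known as a coactivator of the androgen receptor, was the one gene of the group below 0, at 2.58 and 4.86 FPKM in the controls and 2.07 and 3.84 with R848.

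**Figure D1:**
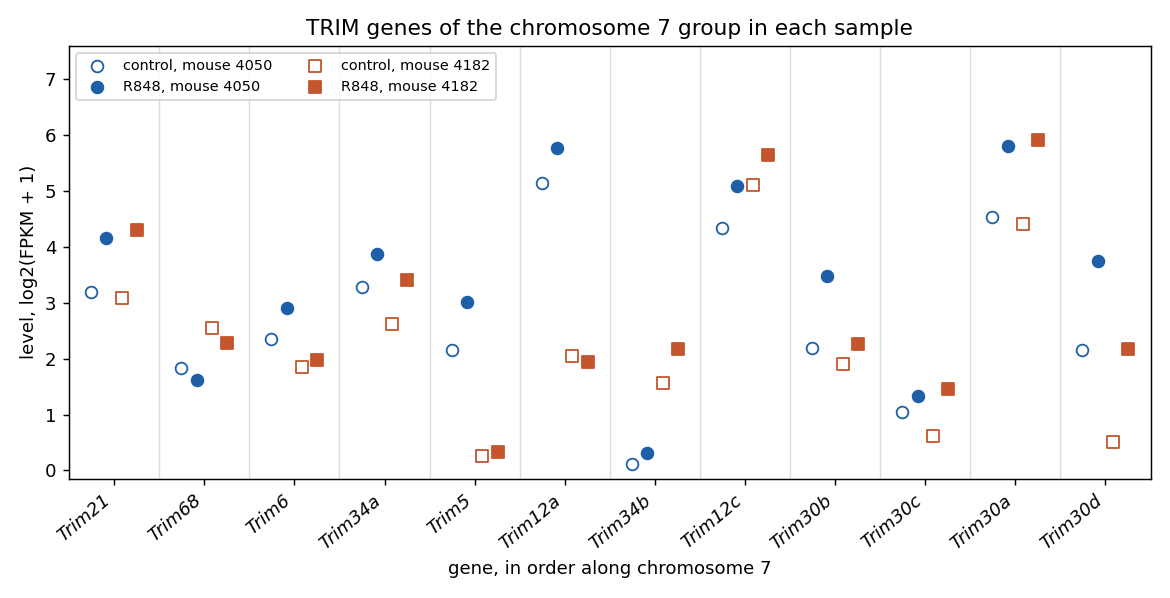
Level of the 12 genes of the chromosome 7 group in each of the 4 samples, on the log2(FPKM + 1) scale, in the order of the genes along the chromosome (open symbols are controls and filled ones R848; circles are mouse 4050 and squares mouse 4182). Filled symbols lie above open ones of the same mouse in 10 of the 12 genes, while Trim5, Trim12a and Trim30d are lower and Trim34b higher in mouse 4182.

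Seen as a group, 10 of these 12 genes were higher with R848 in both mice, 1 was lower in both and 1 went opposite ways. Of all 14108 genes tested 3066 were higher in both mice and 5456 lower in both. The median log2 difference of the 12 genes was 0.61, with 0.70 in mouse 4050 and 0.57 in mouse 4182, beside a median of -0.08 over all genes tested. The groups lay apart in 6 genes, all higher. Over all genes 13.4% lay apart with R848 higher and 28.5% with R848 lower. The group was drawn up with earlier results of these data known, so these counts describe it and do not test it.

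The copies in this group resemble each other, which limits what each value means. The deposited values come from kallisto, which assigns reads by short exact words. In the GENCODE M21 transcripts, 69.0% of the distinct 31-base words of Trim34b and 48.7% of those of Trim34a occurred in both genes. For Trim5 52.9% of the words, for Trim12c 47.7% and for Trim12a 15.7% occurred in another gene, against 11.7% for Trim30a, 11.9% for Trim30d and 1.86% for Trim21. The share-out of reads between Trim34a and Trim34b, and among Trim5, Trim12a and Trim12c, is therefore uncertain. Summed over Trim5, Trim12a and Trim12c, the level was 57.0 and 36.9 FPKM in the controls of mice 4050 and 4182 and 94.0 and 52.3 with R848, or 0.71 and 0.49 higher on the log2 scale. Summed over Trim34a and Trim34b it was 8.81 and 7.14 in the controls and 13.9 and 13.1 with R848, or 0.60 and 0.79 higher. Summed over the TRIM30 genes it was 30.4 and 24.1 in the controls and 79.0 and 68.8 with R848, or 1.35 and 1.48 higher. All 3 sums were thus higher with R848 in both animals, and the sums carry no test.

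Part of the chromosome 7 group differed between the mice. This comparison was added after the values were seen. It takes mouse 4182 against mouse 4050 in the fit with treatment and mouse, so that it compares 2 animals through 2 cultures each. Of the 42 members 4 differed at a limma adjusted p under 0.05, all of the chromosome 7 group, beside 0.893% of all genes tested. Of these 1 was higher in mouse 4182 (0.312% of all genes) and 3 were lower (0.581%). Without adjustment 9 of the 12 genes of the group and 0 of the other 30 members were at a limma p under 0.05, beside 9.63% of all genes. With no filter on low values 0 of the 4 passed. Cell type markers differed between the mice as well. Of 36 tested markers 9 were lower (6.31% of all genes) and 0 higher (3.32%) in mouse 4182 at an unadjusted limma p under 0.05. Of these Ltf, a neutrophil granule gene, passed after adjustment (-1.18, limma adjusted p = 0.0053), and Cxcr2, Ccr7 and Itgax were at -0.91, -0.98 and -1.28. The part of these cells in the differences between the mice was not tested.

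Trim12a had the largest gap. It was at 34.3 FPKM in the control and 53.7 with R848 in mouse 4050, and at 3.12 and 2.82 in mouse 4182. Neither value of mouse 4182 came near those of mouse 4050, or -3.47 on the log2 scale (limma SE 0.23, adjusted p = 4.3e-05). With R848 it was 0.63 higher in mouse 4050 and 0.11 lower in mouse 4182, and its difference with R848 did not pass (limma adjusted p = 0.968, and 0.682 with the block). Trim5 was at 3.48 and 7.06 FPKM (control and R848) in mouse 4050 and at 0.190 and 0.259 in mouse 4182, a difference of -2.29 (limma adjusted p = 0.00222). Trim30d differed by -1.60 (limma adjusted p = 0.00912).

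Trim34b went the other way. It was at 0.0806 and 0.244 FPKM (control and R848) in mouse 4050 and at 1.96 and 3.49 in mouse 4182, a difference of 1.65 (limma adjusted p = 0.0111, and 0.0659 after quantile normalization). Trim34a, the copy with which Trim34b shares most of its words, differed by -0.56 and did not pass (limma adjusted p = 0.380). Trim30a and Trim21 differed by -0.01 and 0.01 between the mice. Between Trim6 and Trim30d, Trim30a was the gene with the most nearly equal values. Trim6, Trim30b and Trim34a were 0.56 to 0.74 lower in mouse 4182, and Trim12c was 0.67 higher, all without passing. The share-out of reads among Trim5, Trim12a and Trim12c is uncertain. Their sum was 57.0 and 36.9 FPKM in the controls of mice 4050 and 4182, and 94.0 and 52.3 with R848. The mice thus lay closer in the sum than in Trim12a alone.

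The 10 genes from Trim6 to Trim30d lie within 289057 bases of chromosome 7 (104218793 to 104507849). Of 12 tested genes in that interval 4 differed between the mice, all TRIM members. Of 74 other tested genes within 5 Mb to either side 5 did (6.757%), namely Gm1966, Gm4070, Gm6341, Gvin1 and Inppl1, listed after the values were seen. The mice also differed elsewhere, and over all genes with coordinates 0.892% did. By chromosome the share was highest on Y, with 4 of 6 tested genes. Neither the strain background nor the sex of the animals was analysed here.

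**Figure D2:**
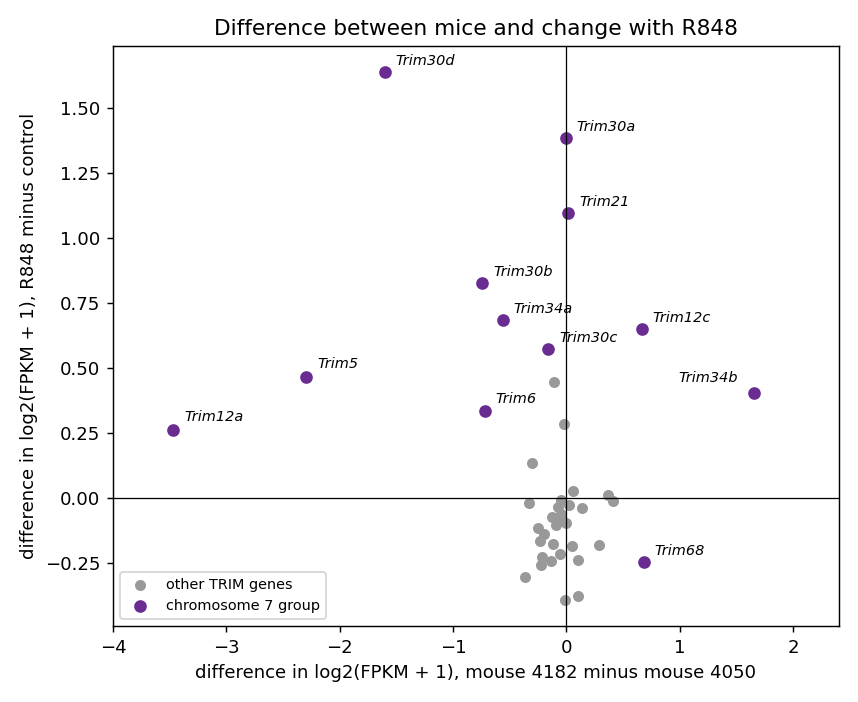
Difference between the mice (horizontal axis, mouse 4182 minus mouse 4050) and difference with R848 (vertical axis, R848 minus control) of the 42 TRIM genes, both in log2(FPKM + 1), with the chromosome 7 group named. The other 30 genes lie between -0.36 and 0.41 across and between -0.39 and 0.44 upward, while Trim12a reaches -3.47 across.

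The 30 TRIM genes outside the chromosome 7 group stayed close to their control values. Their median log2 difference was -0.10, with a range from -0.39 (Trim46) to 0.44 (Trim26), and 5 were above 0. The smallest limma adjusted p was 0.514, and 0.408 with the block. In 2 of them the groups lay apart with R848 higher (Trim26 and Trim56) and in 8 with R848 lower, beside 13.4% and 28.5% of all genes. A p above the threshold does not show that a gene did not change. In simulated data of this comparison, limma found 55.2% of the genes given a log2 change of 1.

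Several of these 30 genes encode ligases that act on RNA and DNA sensing. Trim25, known as an activator of the RNA sensor RIG-I, was at 15.9 and 21.2 FPKM in the controls of mice 4050 and 4182 and at 17.9 and 14.4 with R848. It was higher with R848 in mouse 4050, by 0.16, and lower in mouse 4182, by 0.53. Trim26, known to act on the transcription factor IRF3, was at 4.80 and 5.28 in the controls and 8.19 and 6.33 with R848. Trim56, linked to the DNA sensing enzyme cGAS and its partner STING, was at 11.4 and 12.9 in the controls and 16.2 and 14.0 with R848. Trim26 and Trim56 lay above their controls in both mice, with limma adjusted p of 0.514 and 0.642.

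Trim14, which lacks a RING finger and serves as an adaptor of MAVS at mitochondria, was at 18.7 and 23.4 FPKM in the controls and 18.0 and 24.6 with R848. Trim65, a ligase of the RNA sensor MDA5, had a log2 difference of -0.10. Trim8, Trim13, Trim23 and Trim32, which are linked to NF-kB or STING signalling, had log2 differences of -0.23, -0.17, -0.04 and -0.26. Of the list of 14 TRIM genes of innate sensing, 12 were members. Of these 2 (Trim30a and Trim21) rose and 0 fell, beside 1.13% and 0.269% of all genes.

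The highest mean levels among the members were those of Trim28 and Trim27, followed by Trim30a. Trim28, or KAP1, the corepressor that KRAB zinc finger proteins recruit, was at 157 and 135 FPKM in the controls of mice 4050 and 4182 and at 141 and 125 with R848 (log2 difference -0.14, limma adjusted p = 0.811). Within each mouse it was slightly lower with R848, and the gap between the mice was as wide. Its relatives Trim24 and Trim33, also chromatin readers with a PHD finger and a bromodomain, had differences of -0.22 and -0.18. Trim27 was at 92.2 and 68.2 in the controls and 84.6 and 72.2 with R848, and the groups overlapped. FPKM is scaled by length, so these levels can be set beside each other.

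The leading genes of the other classes differed little between the conditions. Trim37, a centriole regulator with a MATH domain, was at 27.6 and 26.2 FPKM in the controls and 27.3 and 23.9 with R848. Trim23, which carries an ARF GTPase domain, was at 11.1 and 14.9 against 13.03 and 11.9. Trim59, a transmembrane member, was at 13.5 and 15.3 against 14.3 and 12.5. None of these sets of values separated the groups.

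Trim45, with a filamin repeat, was at 10.4 and 13.4 FPKM in the controls and 9.42 and 11.3 with R848. Trim3, of the NHL class, was at 8.95 and 8.92 against 9.93 and 6.69. Trim46, known from microtubules of the axon, was at 2.88 and 2.30 against 1.53 and 1.93, the lowest difference of all members (-0.39, limma adjusted p = 0.586). Trim63, the muscle ligase MuRF1, was at 0.511 and 1.15 against 1.11 and 0.600, with the mice moving opposite ways. Trim16, another member without a RING finger, was at 16.7 and 20.1 against 14.1 and 13.7, below its controls in both mice (log2 difference -0.38, limma adjusted p = 0.518).

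**Figure D3:**
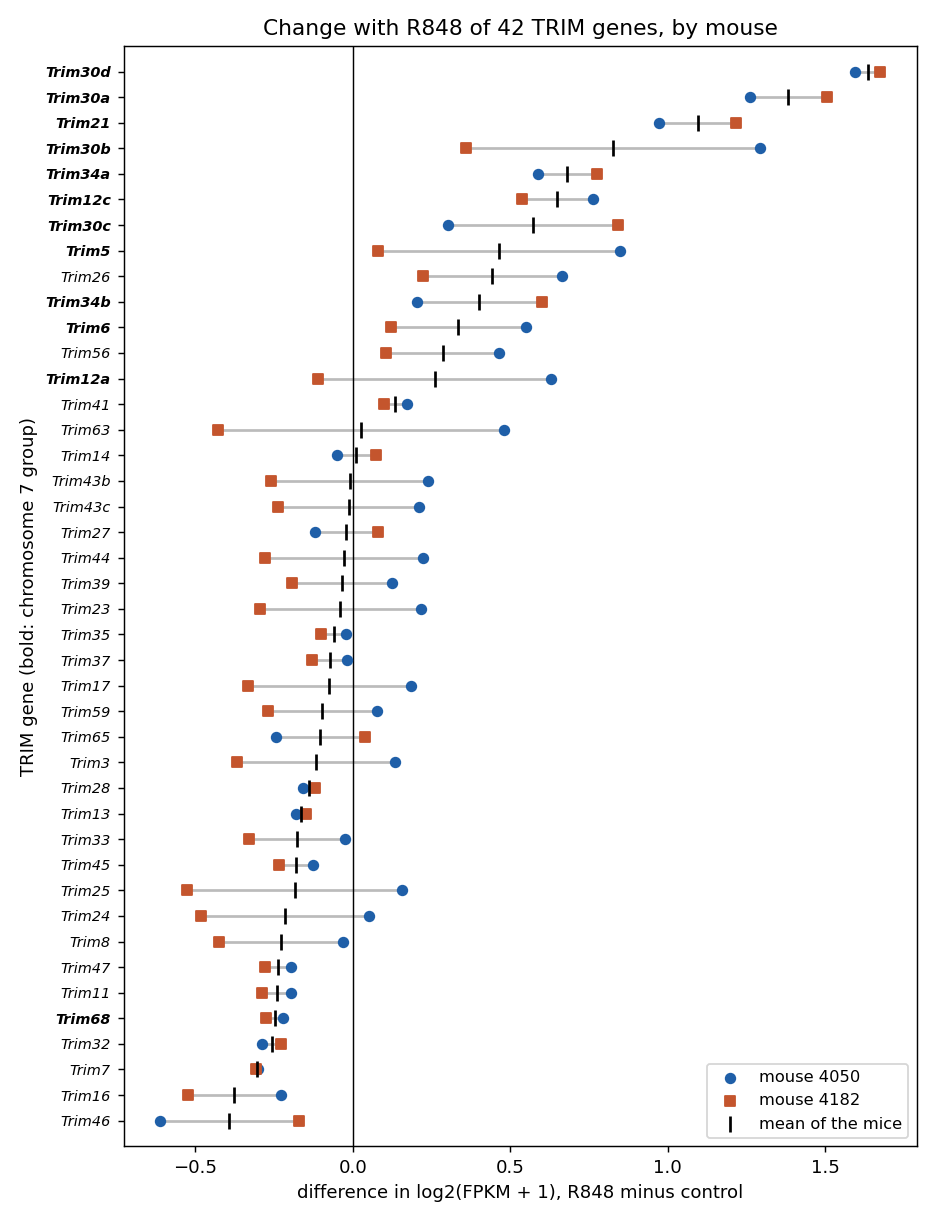
Difference with R848 in log2(FPKM + 1) of the 42 TRIM genes in mouse 4050 (circles) and mouse 4182 (squares), with the mean of the mice as a bar, ordered by that mean. The chromosome 7 group (bold) holds the 8 highest rows, led by Trim30d at 1.64 and Trim30a at 1.38, and the other genes lie around 0.

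Over all 42 members the median log2 difference was -0.04, beside -0.08 for all genes tested, and it was 0.15 in mouse 4050 and -0.16 in mouse 4182. In 13 members both mice were higher with R848, in 14 both were lower and in 15 they went opposite ways. Of all 14108 genes tested 3066 were higher in both mice and 5456 lower in both. The sign of the family's median depended on the scaling, being -0.0004 after quantile normalization and 0.03 after median log ratio scaling. With the signs of the genes near 0 shifting in this way, no direction is given for the family as a whole.

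Relatives that carry no TRIM symbol were compared from a list of 8, of which 4 reached a mean of 0.5 FPKM. Mefv, which encodes the inflammasome protein pyrin and is also named TRIM20, rose. It was at 9.78 and 7.38 FPKM in the controls of mice 4050 and 4182 and 24.8 and 21.4 with R848 (log2 difference 1.34, SE 0.20, limma adjusted p = 0.0348). That call ended without the control of mouse 4182 (limma adjusted p = 0.110) and without either R848 sample (0.279 and 0.309), after quantile normalization (0.0619) and with no filter on low values (0.243). Pml, or TRIM19, the organiser of PML nuclear bodies, was at 20.2 and 24.8 in the controls and 27.97 and 26.4 with R848 (limma adjusted p = 0.650).

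Of 34 ubiquitin enzymes and partners of TRIM proteins 1 rose (1.13% of all genes) and 0 fell (0.269%), and 2 rose with the block (2.82%). The gene that rose was Ube2l6, the conjugating enzyme of the ubiquitin-like protein ISG15, from 5.96 and 6.67 FPKM in the controls to 15.6 and 21.2 with R848 (log2 difference 1.40, limma adjusted p = 0.0349). Its call ended under rescaling (limma adjusted p = 0.1003 after quantile normalization and 0.0891 after median log ratio scaling), with no filter on low values (0.258) and without any 1 of the 4 samples. Uba7, the activating enzyme of ISG15, passed with the block (log2 difference 1.02, limma adjusted p = 0.0239) and not without it (0.114). With the block and rescaling it did not pass either (limma adjusted p = 0.0615 with median log ratio scaling and 0.0834 with quantile normalization). The general conjugating enzymes Ube2d3 and Ube2n had log2 differences of 0.07 and 0.12. The median of the list was 0.04.

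Of 17 tested sensors and adaptors on which TRIM ligases act, 0 passed without the block, 5 were higher and 0 lower at an unadjusted limma p under 0.05 (5.08% and 6.15% of all genes), and 3 rose with the block (2.82% of all genes). Those 3 were Irf7, a transcription factor of interferon genes, Ifih1, the RNA sensor MDA5, and the kinase gene Ikbke. Irf7 was at 8.61 and 8.60 FPKM in the controls and 19.8 and 36.2 with R848 (log2 difference 1.53, limma adjusted p = 0.0637, and 0.00313 with the block). Ifih1 and Ikbke had differences of 0.94 and 0.74 (limma adjusted p = 0.0187 and 0.0222 with the block). For scale, all 14 interferon-stimulated genes of a further list were higher in both mice, beside 3066 of all 14108 genes tested. Of the 14 genes 5 passed (1.13% of all genes rose) and 12 with the block (2.82%), and their median log2 difference was 1.72. Oasl2, of the oligoadenylate synthetase-like family, rose by 3.29, more than any TRIM gene.

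Markers of other cell types moved with R848 too. Counts below are of genes higher in both mice, as were 3066 of all 14108 genes tested (5456 were lower in both). Sums are over the whole list, from control to R848 in mouse 4050 and then in mouse 4182. Of 8 B and plasma cell markers 7 were higher, with Igj up by 4.76 and Mzb1 by 4.05 (sums 544 to 721 and 699 to 660 FPKM, most of them Xbp1). Of 7 monocyte and macrophage markers 4 were higher, with Emr1 up by 1.43 and Fcgr1 by 2.28 (248 to 430 and 218 to 392). Another 2 were lower in both mice, and the lowest log2 difference of that list was -0.73 (not passing). Of 9 T and NK cell markers 4 were higher, with Cd3g up by 1.74 (149 to 239 and 258 to 242). Cd3g was low, at 0 and 0.272 FPKM in the controls of mice 4050 and 4182 and 2.15 and 3.49 with R848. Only 5 of the 9 reached a mean of 0.5 FPKM, and of these 2 were higher and 3 went opposite ways in the mice. Of 5 erythroid and megakaryocyte markers 2 were higher, with Pf4 up by 2.02 and most of the sum (92.5 to 381 and 78.5 to 198). Hba-a1 was at -0.92 (not passing), and Itga2b went opposite ways in the mice. Neutrophil lineage markers were by far the most abundant, with sums that went opposite ways in the mice (77690 to 87442 and 61224 to 48549). Of these 7 genes 0 were higher and 5 went opposite ways in the mice. The 2 lower in both were Ly6g and Mpo, at -0.46 and -0.37 (not passing). Of 6 dendritic cell markers 0 were higher (25.9 to 11.8 and 10.9 to 5.79). Flt3 and Itgax were at -1.18 and -2.08 (passing with the block only, limma adjusted p = 0.0231 and 0.0045). Flt3 is also the gene mutated in these leukaemia cells, so its level does not speak for dendritic cells alone. It was low, at 1.57 and 1.92 FPKM in the controls of mice 4050 and 4182 and 0.331 and 0.0942 with R848. No marker found in the table was listed at 0 in all samples. The part of these cells in the rises of Trim30a and Trim21 was not tested, and in such bulk samples more cells of a type and more RNA per cell cannot be told apart.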

How the data were processed

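RNA from 4 cultures was sequenced, and the labels state paired reads of 150 nucleotides. The labels name both ribosomal depletion and a poly(A) kit. The authors deposited log2 values named FPKM, made with kallisto on mm10 per the submitters' processing notes; versions, annotation and gene summing are not given in the sources used here. Undone as log2(value + 1), they summed to between 950530 and 962001 per sample, so they may be TPM. They hold no counts, so depth is unknown and no interval is given.

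Rows named as dates (27) and 91 repeat rows were dropped, leaving 28074 symbols. The limma 3.58.1 fit (R 4.3.3, trended prior, two-sided, Benjamini-Hochberg) used 14108 genes with a mean of at least 0.5. The fit had no block unless stated. The labels give control and R848 cells of one number as from the same animal, so the numbers pair the samples, and deviations of same-mouse samples correlated at 0.267. P-values rest on 2 samples per group and a prior of 4.81 degrees of freedom beside 2 residual ones. In simulated data of this comparison over 14108 genes 98.5% of genes given a log2 change of 2 were found, with 12 false calls among 181. Coordinates are from GENCODE M21 and promoters from RefSeq, GRCm38.p6; the last 30 bases of 34 of 39 promoter windows were found in transcripts of their gene. Python 3.11.15 with matplotlib 3.10.9 made the plots.

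The members and lists were chosen with earlier results of these data known. Values in every sample are given for members called in either fit, for the chromosome 7 group and for the highest member of each structural class; Trim16, Trim25 and Trim26 were added after their values were seen. From each other list the 2 called genes with the smallest adjusted p in each direction are named, or else the 2 smallest p; Pml, Uba7, Ikbke, Ube2d3 and Ube2n were added, and some genes are not reported here. Alternatives were a pseudocount of 0.1, filters at 1 and 5 and none, quantile and median log ratio scaling, the mouse block, a constant prior, summed repeat rows and leaving out each sample; the block with rescaling and the comparison of the mice were added after seeing the data.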

Additional observations from a re-analysis of the deposited data

Results flagged for a closer look

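A second row of the symbol Trim30b was used in no comparison, apart from the alternative with summed repeat rows. Its mean was 0.513 FPKM in control and 1.04 with R848, above the control level. It stood at 0.854 and 0.171 in the controls of mice 4050 and 4182 and at 1.64 and 0.446 with R848, and so was higher within each mouse while the groups overlapped.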

How the results depend on the processing

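The count of TRIM genes that rose, 2, was 1 with a constant variance prior, after quantile normalization and after median log ratio scaling, 0 with no filter on low values, and 0 to 1 with a sample left out. With no filter, which adds genes near 0 to the test, all counts were 0. Over all genes, 160 rose and 38 fell. These were 71 and 12 after quantile normalization, 82 and 15 after median log ratio scaling, 398 and 184 with the replicate block, 350 and 110 with the block and median log ratio scaling, and 308 and 96 with the block and quantile normalization. With a constant prior 23 fell, and without 1 sample 21 to 147 rose and 0 to 74 fell. The count of partners that rose, 1, was 0 on either rescaling, with no filter and with any sample left out, 2 with the block and 1 with the block and either rescaling. Of the sensing genes, 1 rose at a filter of 1, 2 at a filter of 5 and 3 with the block, rescaled or not. Of the members, 4 differed between the mice, or 2 at a filter of 5, which leaves out Trim5, Trim30d and Trim34b and at which Trim12c passed (0.67, limma adjusted p = 0.0374), and 0 with no filter.

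No member fell under any of these settings. The mouse block changed the call of 1 member, Trim30d, and of no other. Log2 differences that changed sign on rescaling, with the block or without, were all within 0.0613 of 0 before it. After quantile normalization they were 0.013 for Trim23, 0.031 for Trim39, 0.044 for Trim43b, 0.065 for Trim43c and 0.026 for Trim44. After median log ratio scaling they were 0.025 for Trim23, 0.043 for Trim27, 0.0027 for Trim35, 0.029 for Trim39, 0.054 for Trim43b, 0.050 for Trim43c and 0.037 for Trim44.

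With 1 sample left out, log2 differences changed sign for 19 members, none of them called. The ranges were -1.66 to 2.18 for Trim12a, -0.87 to 1.80 for Trim5, -0.52 to 1.33 for Trim34b, -0.13 to 0.80 for Trim6, -0.60 to 0.11 for Trim68, -0.21 to 0.23 for Trim14, -0.23 to 0.084 for Trim17, -0.24 to 0.16 for Trim23, -0.38 to 0.012 for Trim25 and -0.23 to 0.19 for Trim27. They were -0.37 to 0.14 for Trim3, -0.17 to 0.019 for Trim37, -0.15 to 0.082 for Trim39, -0.034 to 0.30 for Trim41, -0.16 to 0.14 for Trim43b, -0.33 to 0.30 for Trim43c, -0.16 to 0.11 for Trim44, -0.23 to 0.28 for Trim63 and -0.22 to 0.014 for Trim65. The lone sample of a group is then assumed to vary like the other group. The block leaves 1 residual degree of freedom, and no sample was left out with it. The cause of these changes was not tested.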
